A study of Mus musculus with 18 samples.

Results

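The TNF receptor superfamily costimulators described here are the 8 genes Tnfrsf4, Tnfrsf18, Tnfrsf9, Tnfrsf1b, Cd27, Tnfrsf1a, Tnfrsf25 and Fas, chosen by symbol from the 15402 genes of the expression table. All 8 members were present and all 8 passed the filter on low values. RNA-seq was performed on 18 libraries from 6 CD4+ T-cell populations of the draining lymph nodes, with 3 replicates each, 5 days after 3% oxazolone, a sensitising hapten, had been applied to the abdominal skin. All populations came from female C57/BL6 Foxp3Timer Foxp3-IRES-GFP mice aged 5 to 10 weeks per the study's methods, and every mouse had been sensitised, so that no unsensitised group was compared. Each replicate was a pool of 3 mice.

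The Timer protein, driven by Foxp3 regulatory sequence, is blue when newly made and matures to a stable red form, so that blue fluorescence reports recent Foxp3 transcription and red its accumulated history. Tnaive cells were CD44lo and Teff cells CD44hi, both GFP- and Timer-, and these are the naïve and the activated conventional T cells. The persistent Foxp3 expressors are Pers1, with intermediate blue and low red fluorescence, and Pers2, in which both are high. PAt cells, with low blue and high red fluorescence, lie between the Persistent and Arrested loci, and Arrested cells have no blue and intermediate red fluorescence, the gate taken in the study for arrested Foxp3 transcription. The sample labels name the 4 Timer+ populations differently, as de novo (Pers1), maturing (Pers2), mature (PAt) and decaying (Arrested) Foxp3 expressers. The populations are sorting gates in a reporter line, and whether an individual cell had passed from one gate to the next was not measured.

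Receptors of this family are bound by trimeric ligands of the TNF family and pass the signal on through their cytoplasmic tails. OX40 (Tnfrsf4), GITR (Tnfrsf18), 4-1BB (Tnfrsf9), TNFRII (Tnfrsf1b) and CD27 (Cd27) recruit TRAF adaptors, which leads to NF-kB activation and supports the survival and expansion of T cells. TNFRI (Tnfrsf1a), DR3 (Tnfrsf25) and Fas carry a death domain, through which they can assemble either an inflammatory or an apoptotic complex. OX40, GITR, 4-1BB and TNFRII are known to be abundant on regulatory T cells (Treg), particularly activated ones.

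The identity genes were read first. Foxp3 was between 14.36 and 14.85 in the 12 Timer+ libraries, with 14.40 to 14.45 in Arrested and 14.36 to 14.65 in PAt, against 11.27 to 11.38 in Tnaive and 10.38 to 10.64 in Teff, on the scale of the deposited values, which are log2 of normalised counts. Cd44 was 9.61 ± 0.13 in Tnaive and 13.05 ± 0.01 in Teff (SD, n = 3). The summed level of 6 CD4 T-cell markers was between 16.81 and 17.26 in every library, and the markers of other cell types were lower but unequal. Of 8 myeloid and dendritic cell markers the summed log2 level was 11.68 to 11.96 in Teff and 8.44 to 9.77 in the other populations. For 5 plasmacytoid dendritic cell markers it was 12.14 to 12.65 in Teff and 10.55 to 11.24 elsewhere, and for the 2 CD8 markers 11.51 to 11.997 in Teff and 9.65 to 10.70 elsewhere. For 6 B-cell markers it was 11.56 to 12.25 in Teff, 11.31 to 11.91 in PAt and Arrested, 10.54 to 10.83 in Pers1 and Pers2 and 9.56 to 10.02 in Tnaive. For the 4 NK-cell markers in the table of 5 listed, it was 8.97 to 9.42 in Tnaive and Teff and 7.20 to 7.69 in the Timer+ populations. These markers did not move together. Eomes had its highest mean in Tnaive and made up most of the sum there. Klrb1c, Ncr1 and Klre1 each had their lowest mean in Tnaive and their highest in Teff. The sum in Tnaive therefore describes Eomes and not the whole list. The part of these markers in the comparisons below was not tested, and in bulk RNA fewer cells with a transcript and less of it per cell cannot be told apart.

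5 members lie on chromosome 4 in the mouse genome build GRCm38 (GENCODE vM21). Tnfrsf4 (chr4:156013843-156016612, plus strand) and Tnfrsf18 (chr4:156026164-156028895, plus strand) are neighbours separated by 9551 bp with 0 protein-coding genes between them. Tnfrsf9 (chr4:150914562-150946102) and Tnfrsf25 (chr4:152115934-152120119) are on the plus strand and Tnfrsf1b (chr4:145213463-145246870) on the minus strand. Cd27 (chr6:125232622-125237010, minus strand) and Tnfrsf1a (chr6:125349362-125362484, plus strand) are 112351 bp apart, and Fas is at chr19:34290666-34327772 on the plus strand. Opposite-strand annotations cover the whole of Tnfrsf18 (Gm16008), 28781 bp of Tnfrsf9 (Camta1) and the whole of Cd27 (Vamp1). The library kit retains strand but the strand setting used for counting is not given in the sources used here, so reads shared with these partners cannot be told apart for these 3 members.

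The promoter windows of the 4 receptors that moved together in the comparisons below are shown because these members shared a pattern of expression. They run from 250 bases before to 50 bases after the RefSeq start (GRCm38.p6) and are written 5′ to 3′ on the strand of the gene. Capitals mark matches on either strand to a general NF-kB pattern, GGGNNNNNCC, or to the AP-1 pattern TGANTCA, where N is any base, and overlapping matches are joined. The windows are chr4:156013445-156013744 for Tnfrsf4, chr4:156026072-156026371 for Tnfrsf18, chr4:150927749-150928048 for the inner start of Tnfrsf9 and, on the minus strand, chr4:145246821-145247120 for Tnfrsf1b.
Tnfrsf4: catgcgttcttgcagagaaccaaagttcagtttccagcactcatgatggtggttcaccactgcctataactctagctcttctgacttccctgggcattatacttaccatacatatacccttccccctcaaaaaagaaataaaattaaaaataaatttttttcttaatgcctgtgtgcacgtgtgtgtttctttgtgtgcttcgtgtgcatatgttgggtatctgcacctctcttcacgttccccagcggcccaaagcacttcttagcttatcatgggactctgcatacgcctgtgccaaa
Tnfrsf18: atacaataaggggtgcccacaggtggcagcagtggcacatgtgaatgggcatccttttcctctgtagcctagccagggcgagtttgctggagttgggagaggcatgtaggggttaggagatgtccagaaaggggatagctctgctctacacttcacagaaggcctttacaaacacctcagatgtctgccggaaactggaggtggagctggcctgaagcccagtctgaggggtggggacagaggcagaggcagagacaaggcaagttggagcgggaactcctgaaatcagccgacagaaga
Tnfrsf9: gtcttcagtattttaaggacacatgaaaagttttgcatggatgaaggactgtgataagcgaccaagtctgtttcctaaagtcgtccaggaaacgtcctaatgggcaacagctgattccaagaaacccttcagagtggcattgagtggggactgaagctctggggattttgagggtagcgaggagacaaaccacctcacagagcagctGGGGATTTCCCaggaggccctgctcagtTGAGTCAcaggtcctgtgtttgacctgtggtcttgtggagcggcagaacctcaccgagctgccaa
Tnfrsf1b: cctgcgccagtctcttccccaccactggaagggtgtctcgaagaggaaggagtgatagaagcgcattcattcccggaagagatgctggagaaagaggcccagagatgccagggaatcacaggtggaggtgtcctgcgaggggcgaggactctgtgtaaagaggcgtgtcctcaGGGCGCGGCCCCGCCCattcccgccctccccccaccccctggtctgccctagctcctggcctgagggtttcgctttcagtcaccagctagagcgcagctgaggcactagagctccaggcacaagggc

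Neither neighbour, Tnfrsf4 or Tnfrsf18, had a match to either pattern in its window. The Tnfrsf4 window, placed by the RefSeq start, ends at 156013744, before the GENCODE start of the gene at 156013843, so sequence around the latter was not searched. In Tnfrsf9 the NF-kB pattern began at position -43 and an AP-1 match at -15, counted from the first transcribed base, while the outer start of Tnfrsf9 had none. In Tnfrsf1b the NF-kB pattern matched from -77. The NF-kB pattern is loose and occurred in 50.8% of 32851 promoter windows, AP-1 in 7.81% and a forkhead core, TGTTTAC, in 3.65%. Among the other members, Cd27, Tnfrsf1a, Tnfrsf25 and Fas matched the NF-kB pattern and Fas also the AP-1 pattern, at -211. The forkhead core was in none of the 10 windows of the 8 members. A match describes letters only, and whether a factor binds there was not measured.

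The members fell into 2 broad patterns. The 4 receptors OX40, GITR, 4-1BB and TNFRII were lowest in Tnaive, then Teff, and higher in all 4 Timer+ populations, with Pers2 at the top. The death domain receptors TNFRI and DR3 were lower in Pers1 and Pers2 than in PAt and Arrested, as was Fas, and CD27 varied least. The range of the 6 population means was 4.86 on the log2 scale for Tnfrsf4, above 99.3% of the tested genes, 4.07 for Tnfrsf9, 4.00 for Tnfrsf1b and 2.74 for Tnfrsf18. It was 2.07 for Tnfrsf25, 1.13 for Tnfrsf1a, 0.94 for Fas and 0.46 for Cd27, the last above 37.3% of the tested genes.

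**Figure D1:**
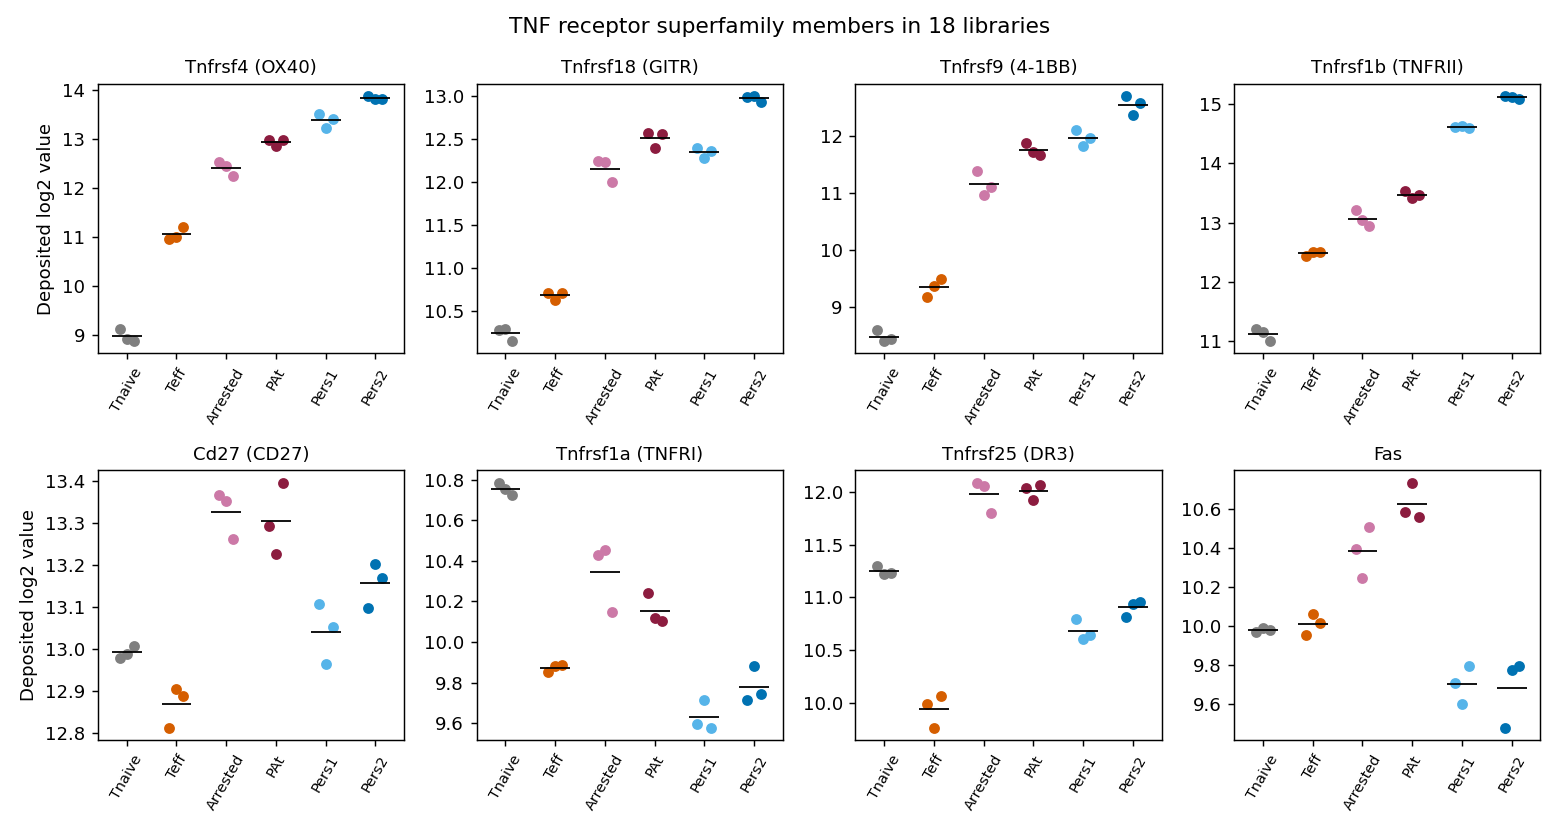
Deposited log2 value (vertical axis, a different range in each panel) of the 8 members in the 6 populations, where each point is 1 library and each line the mean of 3. Tnfrsf4, Tnfrsf18, Tnfrsf9 and Tnfrsf1b reach their highest values in Pers2, whereas Tnfrsf25 is highest in PAt and Arrested, which overlap, Fas in PAt and Tnfrsf1a in Tnaive.

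Tnfrsf4 encodes OX40, which binds OX40 ligand on antigen-presenting cells. Its log2 values were 9.11, 8.91 and 8.87 in Tnaive, 10.96, 11.01 and 11.21 in Teff, 12.54, 12.45 and 12.24 in Arrested, 12.99, 12.85 and 12.97 in PAt, 13.50, 13.23 and 13.41 in Pers1 and 13.88, 13.81 and 13.80 in Pers2. The 6 populations did not overlap at any step of this order, and each neighbouring pair differed (limma, adjusted p between 0.00127 for Pers2 against Pers1 and 5.38e-15 for Teff against Tnaive). By the adjusted p alone, between 5.04% (PAt and Arrested) and 70.3% (Pers2 and Tnaive) of all tested genes differed in the 15 pairs of populations. Tnfrsf4 was the member with the widest span, with Tnaive and Pers2 at its ends.

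Tnfrsf18 encodes GITR, a receptor that is high on resting as well as activated Treg. Its values were 10.28, 10.28 and 10.15 in Tnaive and 10.71, 10.63 and 10.71 in Teff. They were 12.24, 12.23 and 11.99 in Arrested, 12.58, 12.39 and 12.56 in PAt, 12.40, 12.28 and 12.36 in Pers1 and 12.99, 13.002 and 12.93 in Pers2. Every Timer+ library lay above every Timer- library, and Pers1 lay below PAt on average by 0.16 ± 0.07 (SE, limma adjusted p = 0.0374), with overlapping libraries, so that GITR did not order the Timer+ populations as OX40 did.

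Tnfrsf9 encodes 4-1BB, which is induced by T-cell receptor signalling. It was 8.59, 8.40 and 8.44 in Tnaive, 9.18, 9.37 and 9.49 in Teff, 11.38, 10.97 and 11.10 in Arrested, 11.87, 11.71 and 11.67 in PAt, 12.09, 11.81 and 11.95 in Pers1 and 12.70, 12.36 and 12.57 in Pers2. Pers1 and PAt overlapped and their difference of 0.20 ± 0.11 (SE) did not pass the test (limma, adjusted p = 0.0971), while each other neighbouring pair was apart.

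Tnfrsf1b encodes TNFRII, the receptor that prefers membrane-bound TNF. It was 11.21, 11.15 and 11.001 in Tnaive, 12.44, 12.50 and 12.50 in Teff, 13.22, 13.04 and 12.94 in Arrested, 13.53, 13.41 and 13.46 in PAt, 14.62, 14.62 and 14.60 in Pers1 and 15.14, 15.12 and 15.09 in Pers2. No neighbouring pair overlapped, and the step from PAt to Pers1, 1.15 ± 0.06 (SE, limma adjusted p = 1.48e-12), was wider than that from Arrested to PAt (0.40) or from Pers1 to Pers2 (0.50).

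Cd27 encodes CD27, a receptor for CD70 that naïve T cells already carry. Its values were 12.98 to 13.01 in Tnaive, 12.81 to 12.91 in Teff, 13.26 to 13.37 in Arrested, 13.23 to 13.40 in PAt, 12.97 to 13.11 in Pers1 and 13.10 to 13.20 in Pers2. Pers1 overlapped Tnaive, and Arrested overlapped PAt. In the order of its means, Arrested and PAt (adjusted p = 0.875), Pers2 and Pers1 (0.168) and Pers1 and Tnaive (0.398) did not pass the test by limma.

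Among the death domain receptors, Tnfrsf1a (TNFRI, which binds soluble and membrane-bound TNF on most cell types) was 10.73 to 10.79 in Tnaive, 10.15 to 10.45 in Arrested, 10.10 to 10.24 in PAt, 9.85 to 9.88 in Teff, 9.71 to 9.88 in Pers2 and 9.58 to 9.71 in Pers1. The Tnaive libraries stood above all others, and Teff, Pers2 and Pers1 formed a low run in which neither neighbouring pair passed the test (limma, adjusted p = 0.32 and 0.243). The ends of this run did differ, Pers1 against Teff by -0.24 ± 0.08 (SE, limma adjusted p = 0.0107).

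Tnfrsf25 encodes DR3, the receptor for TL1A, which is known to act on Treg. It was 12.04, 11.93 and 12.06 in PAt, 12.09, 12.06 and 11.80 in Arrested, 11.30, 11.22 and 11.23 in Tnaive, 10.82, 10.94 and 10.96 in Pers2, 10.80, 10.60 and 10.64 in Pers1 and 9.99, 9.76 and 10.07 in Teff. Pers1, Pers2 and Teff all lay below Tnaive, and PAt and Arrested above it. PAt and Arrested overlapped (limma, adjusted p = 0.91). Each Pers2 library lay above each Pers1 library, but this pair did not pass the test (limma, adjusted p = 0.0864, and 0.0394 when the fit held these 2 populations alone).

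Fas encodes the receptor that triggers apoptosis on binding Fas ligand. It was 10.59, 10.74 and 10.56 in PAt, 10.40, 10.25 and 10.51 in Arrested, 9.96, 10.06 and 10.02 in Teff, 9.97, 9.99 and 9.98 in Tnaive, 9.71, 9.60 and 9.80 in Pers1 and 9.48, 9.78 and 9.79 in Pers2. Every Pers1 and Pers2 library was below every library of the other populations. Teff and Tnaive overlapped (limma, adjusted p = 0.781).

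Levels of different genes can be compared only per length, for which the log2 of the exon length in kb was subtracted. On this scale Cd27 was the highest member in Tnaive at 11.77, followed by Tnfrsf25 at 10.07, while Tnfrsf4 was at 8.52 and Tnfrsf9 lowest at 7.03. In Pers2 Tnfrsf4 was highest at 13.38, followed by Tnfrsf1b at 13.18, Tnfrsf18 at 12.36 and Cd27 at 11.94, and the 3 death domain receptors were the 3 lowest, at 9.72 for Tnfrsf25, 8.64 for Fas and 8.41 for Tnfrsf1a. In PAt Tnfrsf4 also led at 12.49, with Tnfrsf25 at 10.82 above Tnfrsf9 at 10.30.

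Next, persistent Foxp3 expressors were compared with PAt and Arrested cells, that is, gates of intermediate or high blue fluorescence with gates of low or no blue. These populations also differed in the proliferation gene Mki67 (14.41 to 14.62 against 11.46 to 11.76) and in Cd44 (12.79 to 13.08 against 11.70 to 12.05). The part of proliferation or activation in the differences was not tested. TNFRII was 3.03-fold higher in Pers1 and Pers2 (log2 fold change 1.60 ± 0.04, SE) and DR3 2.30-fold lower (-1.20 ± 0.06). A gene was called when the adjusted p was under 0.05 and the absolute log2 fold change over 1, the thresholds of the study, and in this comparison 1 member was called higher and 1 lower, where 7.51% of the 13190 tested genes were called. The limma adjusted p was 1.22e-17 for Tnfrsf1b and 1.11e-13 for Tnfrsf25, and for both the 6 persistent libraries did not overlap the other 6. The other 6 members stayed under the fold threshold, with adjusted p under 0.05 as for 70.9% of all tested genes. The log2 difference was 0.93 ± 0.06 for Tnfrsf4, 0.80 ± 0.07 for Tnfrsf9 and 0.33 ± 0.05 for Tnfrsf18, against -0.81 ± 0.06 for Fas, -0.55 ± 0.05 for Tnfrsf1a and -0.22 ± 0.04 for Cd27. All 3 death domain receptors and CD27 had every persistent library below every PAt and Arrested library, and OX40 and TNFRII had every persistent library above. GITR and 4-1BB overlapped. The 6 of 8 members without overlap stand beside 45.8% of all tested genes. Summed markers of other cell types also differed in this comparison, though not every marker of a list followed its sum. The summed levels in Pers1 and Pers2 against PAt and Arrested were 10.54 to 10.83 against 11.31 to 11.91 for B cells, 9.65 to 10.18 against 10.41 to 10.70 for CD8 T cells and 10.55 to 11.05 against 11.06 to 11.24 for plasmacytoid dendritic cells. The myeloid and dendritic sum was 9.63 to 9.77 in Pers1 and 8.97 to 9.07 in Pers2 against 8.44 to 9.01 in PAt and Arrested. The part of these markers in the differences was not tested.

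Pers2 was then compared with Pers1, and Arrested with PAt, in 2 comparisons that share no library. Both take their spread from 1 fit, and the sources do not state whether same-numbered libraries came from 1 pool. The 2 comparisons are therefore not known to be independent. No member passed the fold threshold in either, where 0.19% and 0.121% of tested genes were called. By the adjusted p alone, which 10.6% of tested genes passed between Pers2 and Pers1 and 5.04% between Arrested and PAt, 4 receptors differed in both, higher in Pers2 than in Pers1 and lower in Arrested than in PAt. The log2 fold change of Pers2 against Pers1 was 0.62 ± 0.07 (SE) for Tnfrsf18, 0.59 ± 0.11 for Tnfrsf9, 0.50 ± 0.06 for Tnfrsf1b and 0.45 ± 0.08 for Tnfrsf4 (limma, adjusted p between 3.54e-06 and 0.00127). That of Arrested against PAt was -0.60 ± 0.11 for Tnfrsf9, -0.52 ± 0.08 for Tnfrsf4, -0.40 ± 0.06 for Tnfrsf1b and -0.36 ± 0.07 for Tnfrsf18 (adjusted p between 0.000372 and 0.00233). In each case the 3 libraries of one population lay entirely above the 3 of the other. In these directions this held for 16.8% of tested genes between Pers2 and Pers1 and for 10.1% between Arrested and PAt. In either direction the shares were 31.9% and 18%. Of all tested genes 175, or 1.33%, passed the adjusted p in both comparisons in this combination of directions, and 4 of the 8 members were among them. Pers2 and PAt are the gates with the higher Timer fluorescence of each pair. The plasmacytoid sum was 10.88 to 11.05 in Pers1 and 10.55 to 10.75 in Pers2, and the myeloid and dendritic sum was also lower in Pers2 (8.97 to 9.07, against 9.63 to 9.77). The highest plasmacytoid marker was Bst2 (means of 10.77 in Pers1 and 10.46 in Pers2), with Siglech low (4.30 and 3.58). The highest myeloid and dendritic marker was Itgam (8.88 and 8.16), and Zbtb46 went the other way (4.71 and 4.92). The B-cell sum was 11.68 to 11.91 in PAt and 11.31 to 11.60 in Arrested, and the part of these markers in the differences was not tested.

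For Cd27, Tnfrsf1a, Tnfrsf25 and Fas neither comparison passed the adjusted p. The libraries of Tnfrsf25 nevertheless did not overlap between Pers2 and Pers1, nor did those of Fas between Arrested and PAt, so that 5 members were without overlap in each comparison. Their 95% intervals for Pers2 against Pers1 ran from 0.01 to 0.22 for Cd27, from -0.01 to 0.31 for Tnfrsf1a, from 0.05 to 0.39 for Tnfrsf25 and from -0.20 to 0.16 for Fas, all on the log2 scale. For Arrested against PAt they ran from -0.08 to 0.13 for Cd27, from 0.03 to 0.35 for Tnfrsf1a, from -0.20 to 0.14 for Tnfrsf25 and from -0.42 to -0.07 for Fas. Without Arrested replicate 3 the adjusted p of Arrested against PAt was 0.0199 for Tnfrsf1a and 0.0497 for Fas, so that this library decides whether these members pass.

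**Figure D2:**
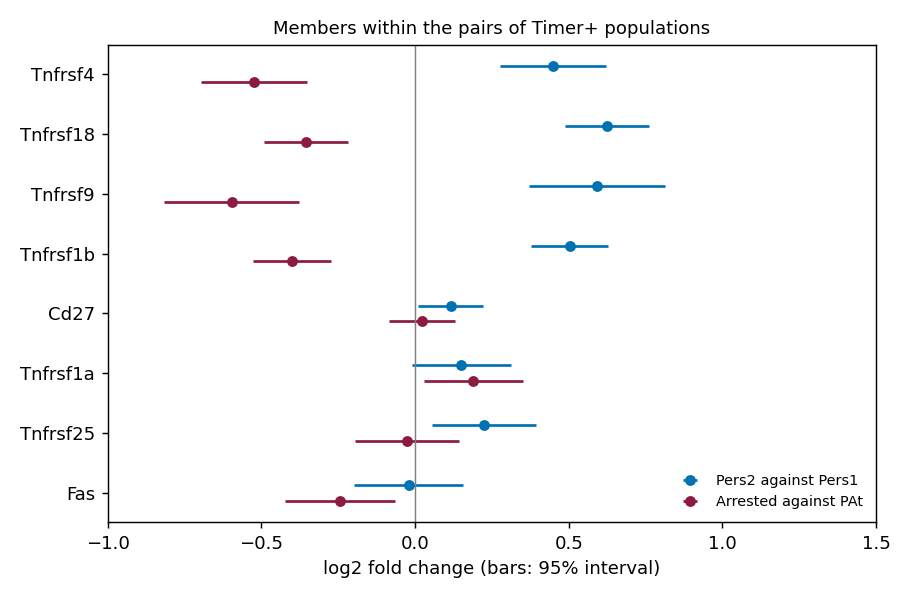
Log2 fold change (horizontal axis) with its 95% interval for the 8 members, for Pers2 against Pers1 (blue) and Arrested against PAt (dark red). Tnfrsf4, Tnfrsf18, Tnfrsf9 and Tnfrsf1b lie to the right of 0 in the first comparison, at 0.45 to 0.62, and to the left in the second, at -0.60 to -0.36.

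Foxp3 expressors were compared with Teff cells to set the receptors against activated conventional T cells of the same lymph nodes. In persistent Foxp3 expressors 4-1BB was 7.46-fold higher than in Teff (log2 fold change 2.90 ± 0.09, SE), OX40 5.84-fold (2.55 ± 0.07), TNFRII 5.23-fold (2.39 ± 0.05) and GITR 3.94-fold (1.98 ± 0.06). These 4 members were called higher and 0 lower, where 4.28% of tested genes were called higher (limma, adjusted p between 5.46e-19 and 2.13e-16). DR3 was 0.86 ± 0.07 and CD27 0.23 ± 0.04 above Teff, while Fas was -0.32 ± 0.07 and TNFRI -0.17 ± 0.07 relative to Teff, all under the fold threshold. The difference of Tnfrsf1a had an adjusted p of 0.0346, its libraries overlapped, and it missed 0.05 (between 0.06 and 0.0875) when any of 7 of the 9 libraries was left out, all except Pers1 replicate 2 and Pers2 replicate 2.

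PAt and Arrested cells, which have lower blue fluorescence, also exceeded Teff. 4-1BB was 4.29-fold (2.10 ± 0.09, SE), DR3 4.17-fold (2.06 ± 0.07), GITR 3.14-fold (1.65 ± 0.06) and OX40 3.06-fold higher (1.61 ± 0.07), and these 4 members were called, where 2.84% of tested genes were called higher. TNFRII was 0.79 ± 0.05, Fas 0.49 ± 0.07, CD27 0.45 ± 0.04 and TNFRI 0.38 ± 0.07 above Teff. For all 8 members each of the 6 PAt and Arrested libraries lay above each of the 3 Teff libraries, where 18.7% of tested genes did so. Both comparisons share the Teff libraries, in which the summed myeloid, dendritic and CD8 markers were highest.

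Against Tnaive, PAt and Arrested cells had 13.1-fold more OX40 (3.71 ± 0.07, SE), 7.85-fold more 4-1BB (2.97 ± 0.09), 4.43-fold more TNFRII (2.15 ± 0.05) and 4.28-fold more GITR (2.10 ± 0.06) transcript. These 4 members were called higher and 0 lower (limma, adjusted p between 3.92e-20 and 8.03e-17), where 6.63% of tested genes were called higher. DR3, Fas and CD27 were 0.74, 0.52 and 0.32 above Tnaive and TNFRI was -0.51 relative to it, with no overlap between the libraries for any member, as for 41.9% of tested genes.

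Activation of conventional T cells was examined as Teff against Tnaive. OX40 was 4.27-fold higher in Teff (2.09 ± 0.08, SE), TNFRII 2.57-fold higher (1.36 ± 0.06) and DR3 2.49-fold lower (-1.31 ± 0.08). These are 2 members called higher and 1 lower, where 11.2% of tested genes were called in either direction (limma, adjusted p of 5.38e-15, 3.87e-14 and 1.03e-11). 4-1BB was 0.87 ± 0.11 and GITR 0.45 ± 0.07 higher and TNFRI -0.88 ± 0.08 lower than in Tnaive, under the fold threshold. Cd27 differed by -0.12 ± 0.05 (adjusted p = 0.0434), which missed 0.05 (between 0.0631 and 0.165) when any library except Teff replicate 2 was left out. Fas differed by 0.03 ± 0.09, a sign that turned when the libraries were centred on their medians (-0.05) or quantile normalised (-0.03).

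The shift between PAt and Arrested and the persistent populations was compared with the shift between Tnaive and Teff by testing the difference of the 2 shifts. These 2 shifts share no library. For OX40 the Timer+ shift was smaller by 1.16 ± 0.10 (SE) on the log2 scale (0.93 against 2.09, adjusted p = 5.2e-09), and it was the 1 member called, where 8.42% of tested genes were called, and 48.7% passed the adjusted p alone, as did 4 members. Fas had a shift of -0.81 in Timer+ and 0.03 in Timer- cells, a difference of -0.84 ± 0.10 (adjusted p = 1.04e-06). TNFRII shifted by 1.60 and 1.36, a difference of 0.24 ± 0.07 (adjusted p = 0.0111), and TNFRI by -0.55 and -0.88, a difference of 0.34 ± 0.09 (adjusted p = 0.00536), each under the fold threshold, as was Fas.

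For the other 4 members the difference of shifts did not pass the test. Its 95% interval ran from -0.10 to 0.32 for Tnfrsf25 (adjusted p = 0.38), from -0.34 to 0.20 for Tnfrsf9 (0.668), from -0.28 to 0.05 for Tnfrsf18 (0.244) and from -0.22 to 0.04 for Cd27 (0.239) by limma. The sign for Tnfrsf9 turned on quantile normalisation, to 0.04. DR3 was lower in the activated population of both kinds, by -1.20 in Timer+ and -1.31 in Timer- cells, and TNFRII higher in both.

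**Figure D3:**
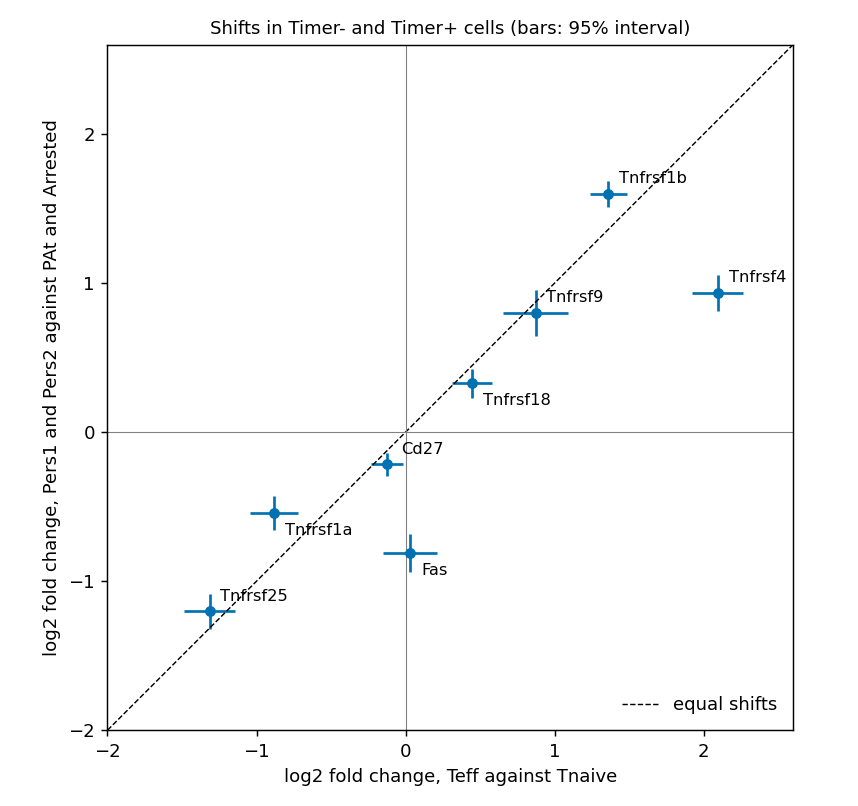
Log2 fold change of the 8 members between Teff and Tnaive (horizontal axis) and between the persistent populations and the PAt and Arrested cells (vertical axis), with 95% intervals and a dashed line of equal shifts. Tnfrsf4 lies 1.16 and Fas 0.84 below the line, and Tnfrsf25, Tnfrsf9, Tnfrsf18 and Cd27 have a difference whose interval includes 0.

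TNFRII and TNFRI both bind TNF, so their difference was computed within each library, on the log2 scale per kb of exon. This measure was chosen after values of both genes had been seen. In Tnaive it was -0.20 ± 0.08 (SD, n = 3), that is, TNFRI slightly above TNFRII. It was 2.05 ± 0.02 in Teff, 2.16 ± 0.12 in Arrested, 2.75 ± 0.04 in PAt, 4.43 ± 0.06 in Pers1 and 4.78 ± 0.09 in Pers2, which is 4.13-fold more TNFRII than TNFRI in Teff and 27.4-fold more in Pers2. These folds depend on the exon length used. With the longest transcript TNFRI was at 8.765 in place of 8.50 in Teff and at 8.67 in place of 8.41 in Pers2. TNFRII was unchanged, so the folds would be smaller. The measure is given as a description, with no test. Its mean was higher by 2.14 in the 6 persistent libraries than in the 6 libraries of PAt and Arrested cells, and by 2.56 than in Teff, with no overlap in either case. PAt and Arrested exceeded Teff by 0.41, with overlapping libraries, and Tnaive by 2.65. Between single populations the differences were 2.24 for Teff against Tnaive, 0.35 for Pers2 against Pers1 and -0.59 for Arrested against PAt.

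**Figure D4:**
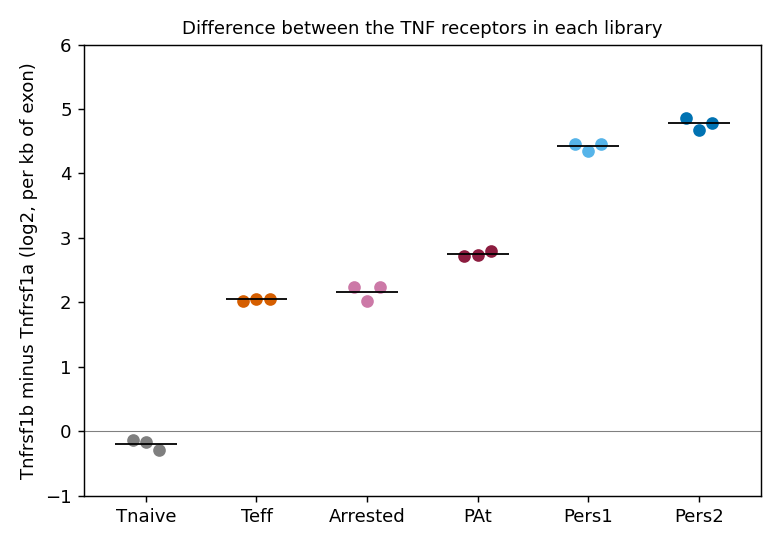
Tnfrsf1b minus Tnfrsf1a in each library (vertical axis, log2 per kb of exon) for the 6 populations, where lines are means of 3. The Tnaive libraries lie just below 0, Teff and Arrested near 2, and the Pers1 and Pers2 libraries between 4.35 and 4.87.

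The other genes of the pathway were taken from lists of 17 ligands, 20 further receptors and the signalling components downstream, in all 78 genes, of which 71 were in the table and 69 were tested. Between the persistent populations and the PAt and Arrested cells 1 was called higher and 2 lower, where 4.74% of all tested genes were called higher and 2.77% lower, and their median log2 fold change was -0.13, against -0.01 over all tested genes.

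Of the 13 ligands tested, 0 were called higher and 2 lower in the persistent populations. Tnfsf8, the ligand of CD30, was 7.98 to 8.43 in Pers1 and Pers2 and 10.56 to 10.88 in PAt and Arrested, a log2 fold change of -2.45 ± 0.07 (SE, limma adjusted p = 7.54e-17). Lta, which encodes lymphotoxin alpha, was 9.66 to 10.30 against 11.04 to 11.51, a change of -1.36 ± 0.06 (adjusted p = 1.57e-14). For both genes the 2 sides were well apart. Tnf itself, chosen for mention as a ligand of both TNF receptors after its values were seen, was -0.72 ± 0.05 relative to PAt and Arrested (adjusted p = 2.01e-11), under the fold threshold. Among ligands of other members, the ligand of OX40 (Tnfsf4, -0.13 ± 0.08) and that of 4-1BB (Tnfsf9, 0.08 ± 0.11) had adjusted p of 0.176 and 0.499. Fas ligand (Fasl) was -0.39 ± 0.11 (adjusted p = 0.0039), under the fold threshold and with overlapping libraries, and the DR3 ligand TL1A (Tnfsf15) -0.16 ± 0.07 (adjusted p = 0.053). Cd70 was under the filter. Tnfsf4 (means of 3.94 to 4.09 in the Timer+ populations) and Tnfsf15 (3.59 to 4.04) were near the filter of 3, where the transform shrinks fold changes. These 5 ligands were likewise named after their values were seen. The GITR ligand, Tnfsf18, was listed but was not in the table. Among the 16 further receptors tested 1 was called, Tnfrsf8 or CD30, an activation-induced receptor, at 7.04 to 8.16 in Pers1 and Pers2 and 6.14 to 6.90 in PAt and Arrested (1.20 ± 0.09, adjusted p = 1.34e-10). CD30 was thus higher and its ligand lower in the same populations.

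Of the 14 TRAF proteins and their partners 0 were called, while 1 was higher and 11 lower by the adjusted p alone, which 70.9% of all tested genes passed, with a median of -0.27. Of 11 genes of ubiquitin and feedback control, 11 NF-kB kinases and subunits and 4 genes of receptor shedding, 0 were called in either direction by limma, and by the adjusted p alone 4, 3 and 4 were higher and 4, 5 and 0 lower. Mki67, a proliferation gene, was 14.41 to 14.62 in Pers1 and Pers2, 11.46 to 11.76 in PAt and Arrested, 12.59 to 12.69 in Teff and 8.46 to 8.50 in Tnaive.

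Between Teff and Tnaive 13 of the 69 pathway genes were called higher and 0 lower, where 8.88% of all tested genes were called higher and 2.28% lower, and 8 were called higher when the libraries were centred on their medians. Of these 13, 4 were ligands and 5 further receptors. The difference of the shifts was called lower for 13 of the 69 genes and higher for 0, where 6.9% of all tested genes were called lower. Teff libraries had the highest sums of myeloid and dendritic cell markers, and the part of those cells in these counts was not tested.

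**Figure D5:**
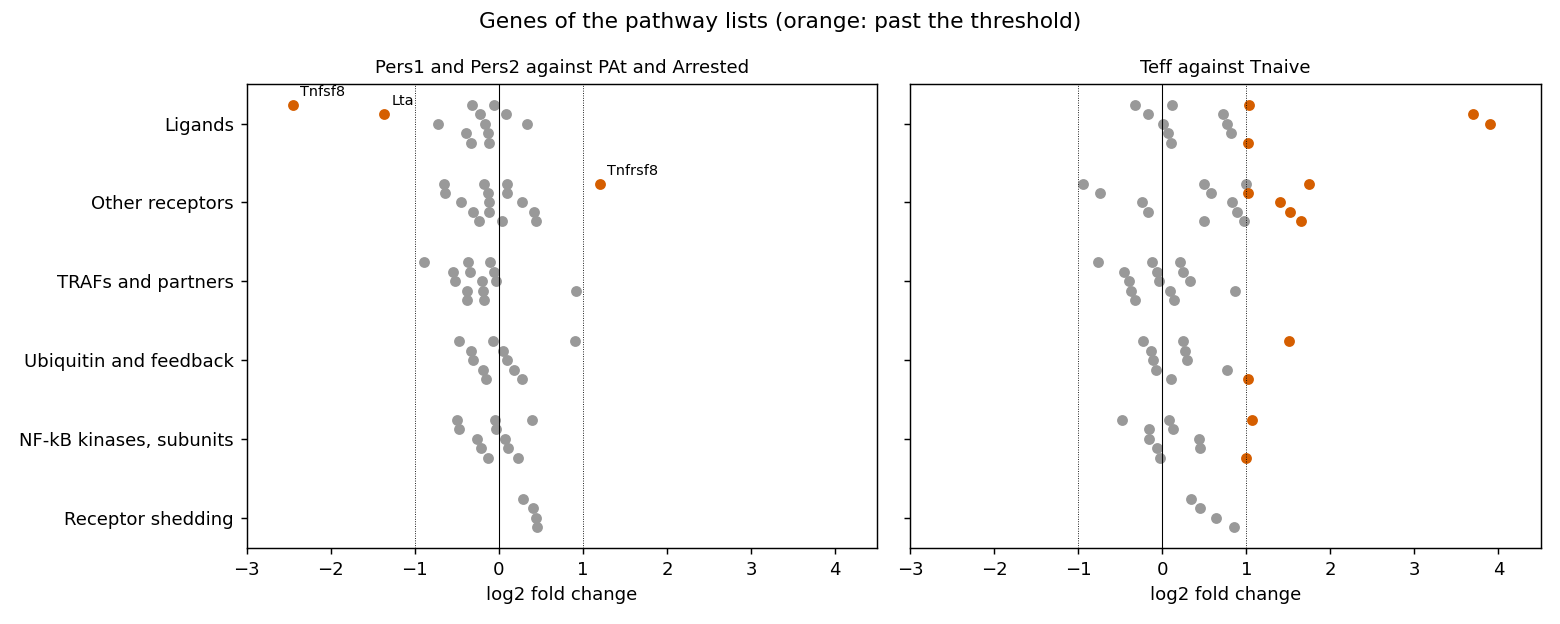
Log2 fold change (horizontal axis) of the tested genes of 6 pathway lists between the persistent populations and the PAt and Arrested cells (left) and between Teff and Tnaive (right), where each point is 1 gene, orange points were called and dotted lines mark the fold threshold. The left panel has 3 called genes, Tnfsf8 and Lta below and Tnfrsf8 above, and the right panel has 13, all above 0.

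The genes with the most similar pattern to each member were named by Pearson's r over the 18 libraries, as a description across libraries that fall into separate populations. For Tnfrsf1b these were Bcl2l1, which encodes the survival protein BCL-xL (r = 0.998), Asxl1 (0.992) and Twsg1 (0.992). For Tnfrsf4 they were Plcb3, the decoy receptor Il1r2 and Lclat1 (each 0.994). Tnfrsf9 (Gbp3 0.991, Src 0.989) and Tnfrsf18 (Acsbg1 0.989, Fam160a1 0.986) were each among the 3 most similar genes of the other, at 0.988. For Tnfrsf25 they were Gata1 (0.985), Stk10 (0.977) and Igf2r (0.976), for Fas Rhob (0.96), Smcr8 (0.942) and Ubp1 (0.941), for Tnfrsf1a Ppm1h (0.974), B930041F14Rik (0.972) and Gimap6 (0.968), and for Cd27 Ltb, the gene of lymphotoxin beta (0.966), 1600014C10Rik (0.957) and D630039A03Rik (0.949). When r was taken over the 6 population means, 8 of these 24 genes were kept among the 3 most similar.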

How the data were processed

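The authors sorted the 6 populations, prepared TruSeq Stranded mRNA libraries, obtained 100 bp paired-end reads and aligned them by TopHat2 2.0.9 to mm10 (once with the Timer gene added), with DESeq2 for the statistics, as given in the methods and the submitters' processing notes (CASAVA 1.8.2 and FastQC 0.11.2 are also listed). The counter and annotation are not given in the sources used here. The values that the authors deposited are log2-scale normalised counts for 15402 genes, of the kind DESeq2's rlog gives (from -0.02 to 18.89). Read counts were not analysed here, so depth and counting error are unknown, precision rests on 3 replicates, and the transform shrinks fold changes of low genes.

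Tests covered 13190 genes, those averaging 3 or more on the log2 scale, and 2212 were set aside. All 18 libraries entered 1 fit with limma 3.58.1 in R 4.3.3 (12 residual degrees of freedom, trend moderation, Benjamini-Hochberg adjustment over all tested genes, two-sided). All adjusted p of fold changes come from it, except those given with a library left out or for another alternative fit. The fit between the persistent populations and the PAt and Arrested cells was also run on simulated data. These held independent noise in each library, no replicate effect and added effects larger than most member differences given here. The simulation therefore says nothing about smaller differences or about paired libraries. The members, lists and comparisons were chosen with earlier results of these data known, and the study names several members for these samples. Named genes are the members, the called genes of each pathway list between the persistent populations and the PAt and Arrested cells, the 3 genes most similar to each member, and Foxp3, Cd44 and Mki67. Tnf, 5 further ligands of members and single cell type markers were named beside this rule, after their values were seen. A further list of signalling genes that was examined is not reported here. Exon lengths came from GENCODE vM21 and promoters from RefSeq (GRCm38.p6, all 8 members matched). Protein sequences were not analysed here. Alternatives covered the filter, moderation, samples in the fit, scaling, fold threshold, replicate block and leaving out each library. Figures were drawn with matplotlib 3.10.9 in Python 3.11.15.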

Additional observations from a re-analysis of the deposited data

Results flagged for a closer look

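The shift between PAt and Arrested and the persistent populations differed from the shift between Tnaive and Teff, by the test of the difference itself (limma, adjusted p under 0.05), for 4 of the 8 members, where 48.7% of all tested genes did. The difference of the shifts on the log2 scale was -1.16 for Tnfrsf4 (SE 0.10, -1.24 to -1.09 when each library was left out in turn) and -0.84 for Fas (SE 0.10, -0.88 to -0.79). It was 0.34 for Tnfrsf1a (SE 0.09, 0.29 to 0.36) and 0.24 for Tnfrsf1b (SE 0.07, 0.19 to 0.30). The summed B-cell, myeloid and dendritic cell markers also differed between these populations, and their part in the differences was not tested.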

How the results depend on the processing

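The number of members called in each comparison was the same as reported with no filter or a stricter filter on low values, moderation without a trend, only the groups of the comparison in the fit (not run for the difference of shifts, which uses all 6 populations), libraries centred on their median or quantile normalised, the replicate block, and without any single library. The fits reported treat libraries as unpaired. Same-numbered libraries of different populations correlated in their deviations with a median of 0.166 over 45 pairs (-0.0642 over 90 pairs with different numbers). The correlation was over 0.1 in 32 of the 45 and in 3 of the 90. The sources do not state that a number marks 1 pool in all populations. With the replicate block as an alternative, 992 genes were called between the persistent populations and the PAt and Arrested cells, and no call of a member changed. With no threshold on the fold change the counts rose by construction. Then 9357 genes, 8 members and 49 pathway genes were called between the persistent populations and the PAt and Arrested cells, 7739, 8 and 49 between the persistent populations and Teff, 6950, 8 and 51 between PAt and Arrested and Teff, 6684, 8 and 42 between PAt and Arrested and Tnaive, and 7785, 7 and 50 between Teff and Tnaive. For Pers2 against Pers1 these counts were 1395, 4 and 7, for Arrested against PAt 665, 4 and 5, and for the difference of shifts 6420, 4 and 41.

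Centring the libraries on their median gave 8 pathway genes between Teff and Tnaive in place of 13, and turned the sign of Fas between Teff and Tnaive (-0.0525) and of Tnfrsf25 between Arrested and PAt (9e-04). Quantile normalisation turned Fas between Teff and Tnaive (-0.0303), Cd27 between Arrested and PAt (-0.0062) and Tnfrsf9 in the difference of shifts (0.0429). The cause was not tested, and none of these values passed the test as reported. Without 1 library, the number of genes called between Arrested and PAt ran from 12 to 26 (16 with all libraries, 26 without Arrested replicate 3). Of 600 member values with 1 library left out 5 turned sign, within ranges of -0.0757 to 0.0817 for Fas between Pers2 and Pers1, -0.0171 to 0.0679 for Cd27 and -0.0796 to 0.0658 for Tnfrsf25 between Arrested and PAt. The adjusted p alone crossed 0.05 in 16 of 1040 member values, for Cd27, Tnfrsf1a, Tnfrsf25 and Fas. Of 24 genes named as similar, 8 were kept when r was taken over the population means. With the length of the longest transcript, the level per kb rose for 7 members, all except Tnfrsf1b.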
